A study of Rattus norvegicus with 5 samples.

Results

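Matrix metalloproteinases (MMPs) and their tissue inhibitors (TIMPs) were followed in primary rat hepatic stellate cells, liver cells that store vitamin A and become matrix-producing myofibroblasts after injury or on plastic. The set holds 10 genes, Timp1, Timp2, Timp3, Mmp2, Mmp3, Mmp9, Mmp12, Mmp13, Mmp14 and Mmp19, taken as every probe whose platform annotation carries one of these symbols. Each gene had 1 probe, out of 13793 probes named for 13337 genes on the array. All RNA came from male Wistar rats aged 10 weeks. The 5 Illumina arrays comprise 1 labelled as freshly isolated, untreated cells, 2 of cells at day 3 given vehicle, and 2 of cells at day 3 given 1,25(OH)2D3 at 100 nM for 24 h. That compound is calcitriol, the active vitamin D hormone, and the study asked how it affects the activated stellate cell. The labels do not say whether replicate arrays were separate cultures or animals, so the p-values below measure only the spread between these arrays.

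MMPs are zinc-dependent enzymes that are made as inactive proenzymes and cut collagens, proteoglycans, elastin and other matrix proteins once their propeptide is removed. TIMPs block them by binding the active site, and TIMP2 also helps the membrane-anchored MMP14 to activate pro-MMP2. In liver fibrosis the balance of both families bears on whether scar is kept or removed, and activated stellate cells are a known source of TIMP1. Many MMP genes carry a binding motif for AP-1, the Fos and Jun family of transcription factors, a short way before the start of the gene.

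Mmp3, Mmp12 and Mmp13 lie in a run of 10 MMP genes with no other annotated protein-coding gene between them in the rat RefSeq annotation. Of the 9 genes of this run with a probe, 5 were detected on all 5 arrays and 4 on none. The 100 bases before the start of each of the 5 detected genes are shown because all 5 hold the AP-1 motif TGANTCA, which reads the same on both strands and is written in capitals. Sequences are from RefSeq, build GRCr8, plus strand, at chr8:12782729-12782828 for Mmp13, chr8:12866552-12866651 for Mmp12, chr8:12925181-12925280 for Mmp3, chr8:12974607-12974706 for Mmp10 and chr8:13132943-13133042 for Mmp7.
Mmp13: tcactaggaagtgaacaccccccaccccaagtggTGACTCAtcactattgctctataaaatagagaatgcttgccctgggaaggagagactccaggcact
Mmp12: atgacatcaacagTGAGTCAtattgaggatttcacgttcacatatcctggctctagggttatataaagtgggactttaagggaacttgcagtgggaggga
Mmp3: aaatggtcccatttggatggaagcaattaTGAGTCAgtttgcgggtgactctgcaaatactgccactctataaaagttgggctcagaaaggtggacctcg
Mmp10: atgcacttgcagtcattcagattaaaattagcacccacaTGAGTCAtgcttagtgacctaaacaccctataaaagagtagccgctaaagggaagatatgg
Mmp7: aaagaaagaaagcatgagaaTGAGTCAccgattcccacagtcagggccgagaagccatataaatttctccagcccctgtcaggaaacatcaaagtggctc

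The motif began 66 bases before the start of Mmp13, 87 before Mmp12, 71 before Mmp3, 61 before Mmp10 and 80 before Mmp7. It occurs in 7.33% of 33469 rat promoter windows of 300 bases (250 before to 50 after the start). In the same run it was also present before Mmp1 and Mmp20, whose probes were detected on no array, and absent before Mmp8 and Mmp27, which were not detected either. It was thus present for 5 of 5 detected and 2 of 4 undetected genes of the run. Mmp1b, which had no probe, held no match, so 7 of all 10 genes of the run had the motif. Whether motif and detection go together was not tested. Promoter windows were at hand for 6 of the 10 MMP and TIMP genes followed here, and those of Timp1, Timp2 and Timp3 held no match. A match is a stretch of letters and not a measured binding site.

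Probe signal in this run ranged from background to the brightest of the array. Mmp12 (macrophage elastase) had signals from 24551 to 31562 intensity units over the 5 arrays, and Mmp3 (stromelysin 1) from 21393 to 28345. Mmp10 (stromelysin 2) ran from 2176 to 3522, Mmp13 (collagenase 3) from 308.6 to 535.7, and Mmp7 (matrilysin) from 236.9 to 492.3. The 4 undetected genes, the collagenases Mmp1 and Mmp8 with Mmp20 and Mmp27, stayed between 73.3 and 110.0 on every array, with no detection p under 0.168. Brightness differs between probes for reasons other than RNA amount, so these signals do not rank the genes by transcript level.

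**Figure D1:**
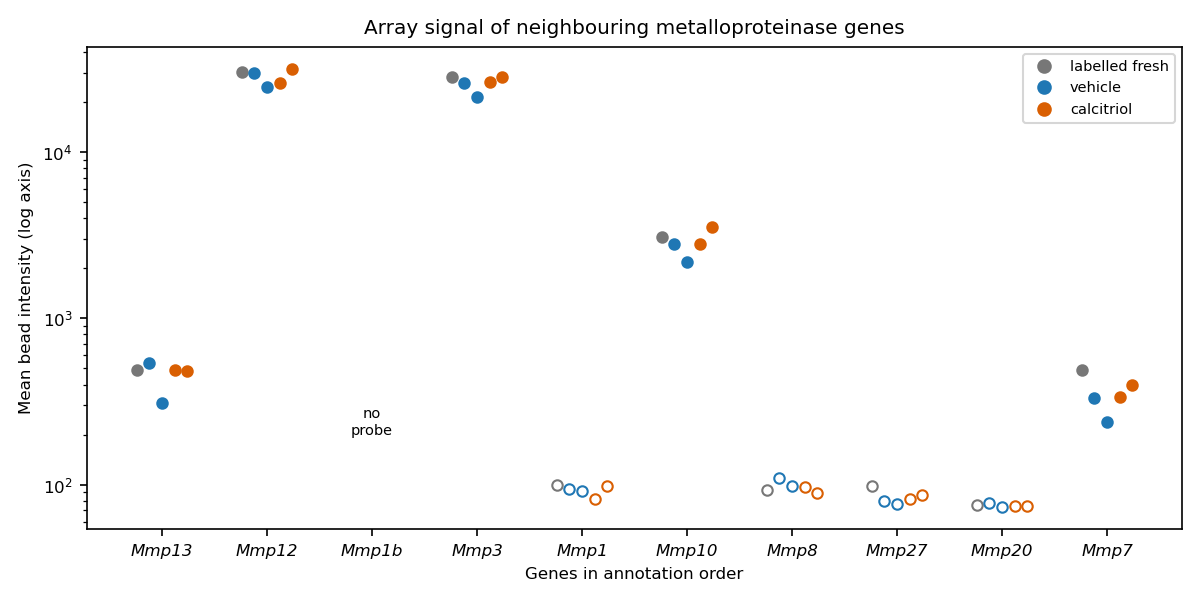
Mean bead intensity (log axis) of the 10 neighbouring metalloproteinase genes in annotation order, 1 point per array, grey for the array labelled freshly isolated, blue for vehicle and orange for calcitriol. Filled points mark the 5 genes detected on all 5 arrays, open points the 4 detected on none at 73.3 to 110.0 units, and Mmp1b had no probe.

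The arrays were alike in median signal (110.3 to 121.3 units), while mean signal was lowest on vehicle array 2 (608.2) and highest on the array labelled freshly isolated (854.8). Cyp24a1, the enzyme that degrades calcitriol and is induced by it, had signals of 509.9 and 590.7 with calcitriol and of 105.2 and 84.4 with vehicle, but 381.9 on the array labelled as untreated and freshly isolated. That array lay nearer to the calcitriol arrays (median absolute log2 difference over 9737 probes 0.163 and 0.179) than to the vehicle arrays (0.213 and 0.221). The vehicle arrays differed from each other by 0.170 and the calcitriol arrays by 0.159. Comparisons with that array are therefore given as comparisons with its label. The names of all 5 arrays share 1 number and each ends in its own letter. The labels do not say whether number and letter stand for chip and position. If they do, position and group cannot be told apart. Of 18 stellate cell markers 14 had a named probe and 11 or 12 of these were detected on each array, among them desmin, vimentin and the collagen I chains, while the glial protein gene Gfap was detected on none.

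A gene counts as measured here when its detection p, which sets its signal against negative control beads, was under 0.01 on at least 1 array. By this rule 8 of the 10 genes were measured, each on all 5 arrays, and Timp3 and Mmp2 on none. Timp3 encodes a matrix-bound inhibitor that also blocks ADAM proteases, and its signal was 106.8 on the array labelled freshly isolated, 126.1 and 90.3 with vehicle, and 97.5 and 122.8 with calcitriol. Its lowest detection p was 0.0303. Mmp2, the gelatinase A gene, gave 114.2 on the array labelled freshly isolated, 116.3 and 104.1 with vehicle, and 99.5 and 103.0 with calcitriol, with a lowest detection p of 0.127. Neither probe was well above background in any group, so no fold is given for these genes.

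Levels of the 8 measured genes are given as log2 intensities after background correction and quantile normalization. Timp1, the secreted inhibitor that stellate cells produce on activation, stood at 14.80 on the array labelled freshly isolated, 14.50 and 14.51 with vehicle, and 14.58 and 14.73 with calcitriol. Both calcitriol arrays lay above both vehicle arrays and below the array labelled freshly isolated. Its log2 change with calcitriol was 0.15 ± 0.13 (SE, n = 2 per group; limma adjusted p = 0.638), within the spread between arrays. Before normalization the signals were 30961, then 23247 and 19191 with vehicle, then 24680 and 28325 with calcitriol.

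Timp2, which blocks MMPs and bridges MMP14 to pro-MMP2, had the widest range of the measured genes. Its level was 8.91 on the array labelled freshly isolated, 9.06 and 9.04 with vehicle, and 8.90 and 8.44 with calcitriol. The calcitriol arrays lay below both vehicle arrays, but they differed from each other by 0.459. The log2 change was -0.38 ± 0.18 (adjusted p = 0.393 in limma), and it was -0.61 without calcitriol array 1 and -0.15 without calcitriol array 2.

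Mmp14 encodes the membrane-anchored MMP that cuts collagen at the cell surface and activates pro-MMP2. Its level was 13.50 on the array labelled freshly isolated, 13.50 and 13.64 with vehicle, and 13.25 and 13.16 with calcitriol. Both calcitriol arrays lay below the other 3 arrays after normalization. Before it the signals were 13335 on the array labelled freshly isolated, 11569 and 9691 with vehicle, and 9543 and 10345 with calcitriol. Those of vehicle and calcitriol thus overlapped. The log2 change against vehicle was -0.36 ± 0.13, with a 95% interval of -0.70 to -0.03 that does not include 0, but an adjusted p = 0.271 in limma over all probes. It passed in 1 of 14 alternative settings, the fit with an intensity-dependent variance, at adjusted p = 0.0376 (0.0376 to 0.875 over all settings). With scaling to the array median, which moves the median change of all probes to 0.17, its change was -0.10.

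Mmp9, the gelatinase B gene, stood at 13.74 on both vehicle arrays, at 13.47 and 13.42 with calcitriol and at 13.41 on the array labelled freshly isolated. The vehicle arrays were thus the high ones after normalization. Before it the signals were 12705 on the array labelled freshly isolated, 13356 and 10561 with vehicle, and 11194 and 12342 with calcitriol. Those of vehicle and calcitriol thus overlapped. The log2 change with calcitriol was -0.29 ± 0.13 (95% interval -0.60 to 0.02; limma adjusted p = 0.341), and it shrank to -0.02 with scaling to the array median. Vehicle against the array labelled freshly isolated gave 0.32 ± 0.15 (adjusted p = 0.434), or 0.03 with that scaling.

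Mmp3, which cuts proteoglycans and activates other pro-MMPs, was the steadiest gene. It had 14.67 on the array labelled freshly isolated, 14.65 and 14.65 with vehicle, and 14.69 and 14.71 with calcitriol. The whole range was 0.057 on the log2 scale after quantile normalization, although the signals before it ran from 21393 to 28345. The log2 change with calcitriol was 0.05 ± 0.12, with a 95% interval of -0.26 to 0.36.

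Mmp12, the elastase best known from macrophages, stood at 14.75 on the array labelled freshly isolated, 14.84 and 14.79 with vehicle, and 14.66 and 14.92 with calcitriol. The 2 calcitriol arrays were the lowest and the highest of all 5, so the groups overlapped. Its log2 change was -0.02 ± 0.15 (95% interval -0.39 to 0.34; adjusted p = 0.961 in limma), and it took the opposite sign (0.08) with scaling to the array median. Probes of Timp1, Mmp3 and Mmp12 were brighter than at least 99.6% of probes on every array, and whether signals this bright are compressed was not tested.

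Mmp13, the main collagenase for fibrillar collagen in rodents, had 8.48 on the array labelled freshly isolated, 8.77 and 8.21 with vehicle, and 8.75 and 8.56 with calcitriol. The vehicle arrays held both the highest and the lowest value, a gap of 0.561, whereas the beads of 1 array gave a standard error of 3.80% to 6.06% of the signal. The log2 change was 0.16 ± 0.21 (adjusted p = 0.758 in limma). Without vehicle array 1 it was 0.45 and without vehicle array 2 it was -0.12, so 1 vehicle array sets its sign.

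Mmp19, a secreted MMP that cuts basement membrane proteins, was the dimmest measured gene, with signals of 164.7 to 205.5 and detection p from 0.00242. Its level was 6.81 on the array labelled freshly isolated, 6.63 and 6.85 with vehicle, and 6.50 and 6.52 with calcitriol. Both calcitriol arrays were the low ones. The log2 change was -0.23 ± 0.14 (adjusted p = 0.48 in limma), and -0.13 without background correction.

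**Figure D2:**
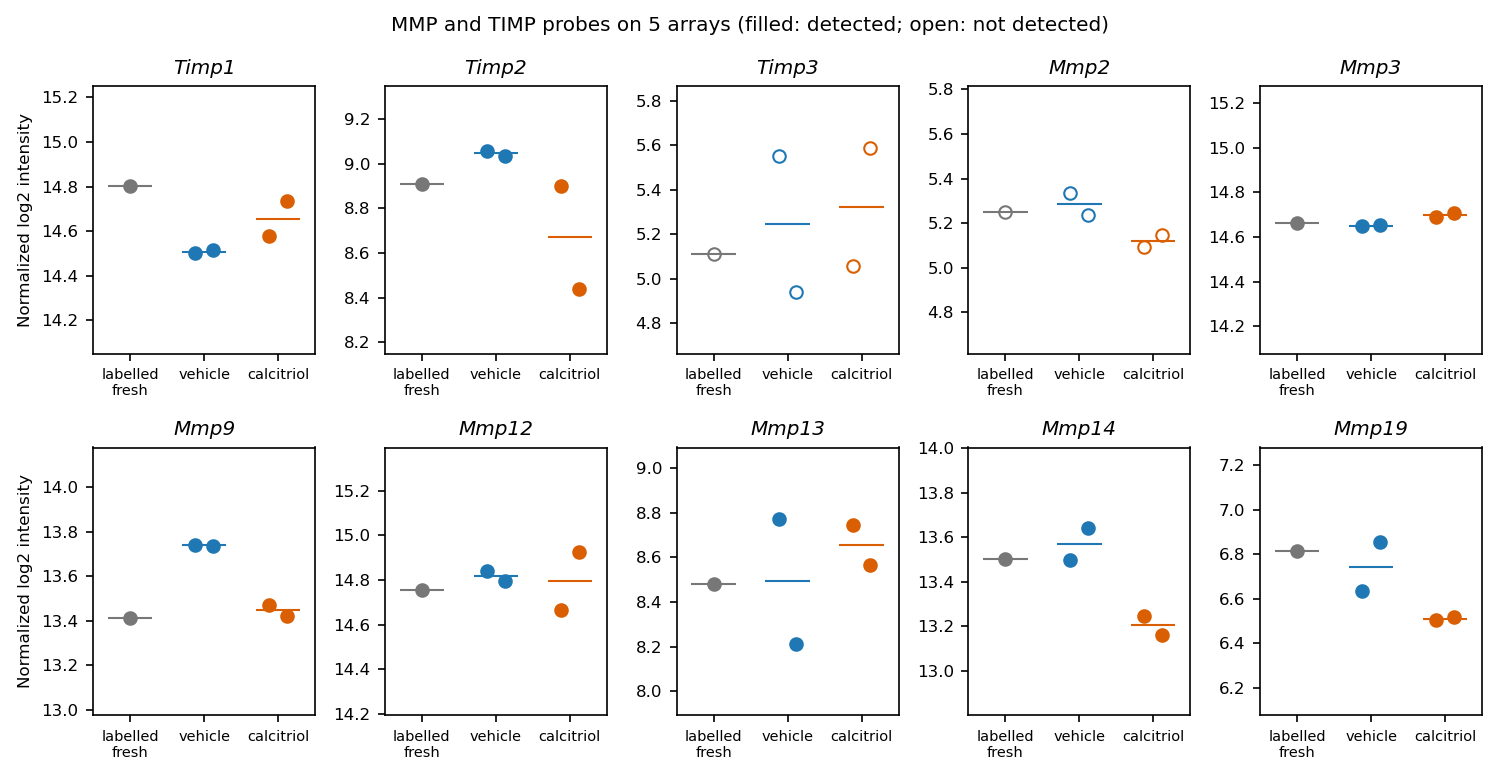
Normalized log2 intensity of the 10 MMP and TIMP probes, 1 point per array and a line at each group mean, with the same span of 1.2 log2 units in every panel. Open points mark Timp3 and Mmp2, detected on no array; Mmp3 spans 0.057 and Timp2 0.618, the widest of the measured genes.

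Calcitriol against vehicle, the comparison with replicates on both sides, gave no MMP or TIMP gene past an adjusted p of 0.05 in limma. That is 0 of 8, where 1.83% of all 9737 tested probes passed. At an unadjusted p under 0.05 there was 1 of 8, Mmp14, beside 15.8% of all probes. After normalization the calcitriol arrays did not overlap the vehicle arrays for 6 genes, beside 47.7% of all probes. Timp1 and Mmp3 were higher with calcitriol, and Timp2, Mmp9, Mmp14 and Mmp19 were lower. Before normalization the signals of Timp2, Mmp9, Mmp14 and Mmp19 overlapped between these groups. The median log2 change was -0.13 over the 8 genes and 0.00 over all probes, and the median size of the change was 0.20 and 0.18. The 95% intervals of the 8 genes reached from -0.84 (Timp2) to 0.70 (Mmp13), so in this fit a 2-fold change lay outside the interval of every one. Missing the adjusted threshold does not show that a gene was unchanged: smaller changes lie within these intervals, and the threshold can miss them. Without the array labelled freshly isolated the count remained 0 of 8, with 182 probes passing in all.

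Vehicle against the array labelled freshly isolated also gave 0 of 8 in limma, beside 1.53% of all probes, and 0 of 8 at an unadjusted p under 0.05, beside 13.9%. The values ran from -0.30 ± 0.16 for Timp1 to 0.32 ± 0.15 for Mmp9, and adjusted p from 0.434 to 0.99. The 95% interval for Timp1 was -0.70 to 0.11 and that for Mmp13, the widest, -0.64 to 0.66. For 5 of the 8 genes the vehicle arrays lay on 1 side of the single array, beside 73.6% of all probes. Directions for Timp2, Mmp12, Mmp13 and Mmp14 changed when arrays were scaled to their medians, a step that moved the median over all probes to -0.18.

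Calcitriol against the array labelled freshly isolated gave 0 of 8 as well, with 0% of all probes passing in limma. At an unadjusted p under 0.05 there were 0 of 8 genes, beside 6.67% of all probes. The largest values were -0.30 ± 0.17 for Mmp19 and -0.30 ± 0.16 for Mmp14, each with an adjusted p = 0.862, and the others lay between -0.24 and 0.17. For 7 of the 8 genes the calcitriol arrays lay on 1 side of the single array, beside 68.2% of all probes. Each pair of these comparisons shares arrays, so their values are set side by side and not counted as agreement. The single array has no replicate, and the fit takes its spread from the other arrays.

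**Figure D3:**
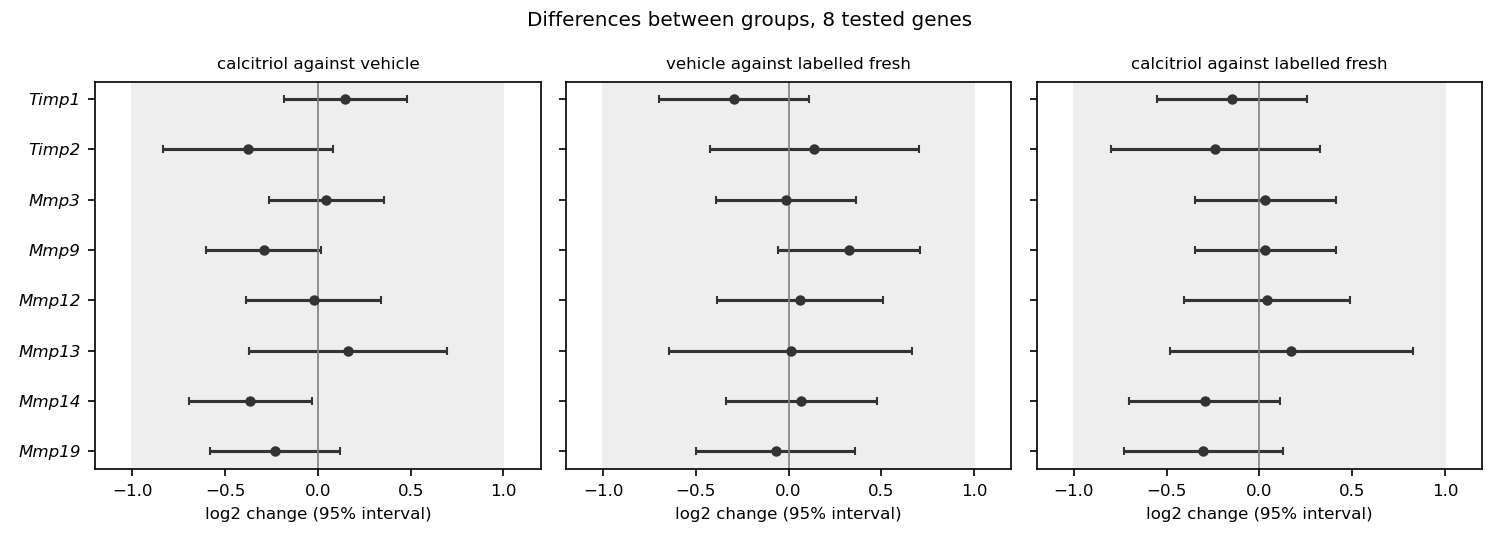
Log2 change (points) and 95% interval (bars) of the 8 measured genes in the 3 comparisons, with limma's moderated errors; grey marks changes under 2-fold. All intervals for calcitriol against vehicle lie between -0.84 and 0.70, and of these only the interval of Mmp14 (-0.70 to -0.03) leaves out 0.

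Genes around the MMPs were read from 8 lists. Of 20 further genes of the family (other MMPs, Timp4 and Reck) 14 had a named probe and 5 were measured, Mmp7, Mmp10, Mmp16, Mmp23 and Reck, a membrane-anchored MMP inhibitor. With calcitriol limma passed 0 of these 5, and 0 also at an unadjusted p under 0.05. Mmp7 had the largest value, 0.37 ± 0.15 (adjusted p = 0.321), and stood at -0.73 ± 0.18 with vehicle against the array labelled freshly isolated (adjusted p = 0.163, the only one of the 5 under an unadjusted 0.05). Reck had a log2 change of 0.13 ± 0.13 with calcitriol.

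Proteases and partners that act with MMPs held 2 genes that passed with calcitriol, both lower, where 0.657% of all probes were lower. Plau, the urokinase activator of plasminogen, which in turn activates pro-MMPs, fell 4.05-fold (adjusted p = 0.00497 in limma), the only one of 6 measured genes of the plasminogen system to pass. Its log2 level was 11.59 and 11.45 with vehicle, 9.53 and 9.48 with calcitriol and 10.58 on the array labelled freshly isolated. Cd44, a hyaluronan receptor that can hold MMP9 at the cell surface, fell 1.90-fold (adjusted p = 0.0481), the only one of 10 measured partners, activators and clearance genes. Among 8 measured ADAM and ADAMTS genes limma passed 0 (1 at an unadjusted p under 0.05, the sheddase gene Adam17 at -0.52 ± 0.20). Cathepsins and their inhibitors also gave 0 of 9 (2 at an unadjusted p under 0.05, Ctss at 0.63 ± 0.20 and Ctsc at -0.36 ± 0.14).

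Regulators and inducers of MMP genes held 3 genes that passed, all higher, where 1.17% of all probes were higher. Of 19 measured AP-1, ETS and NF-kB factors 1 passed, Jdp2, an AP-1 family repressor, which rose at least 2.76-fold (limma adjusted p = 0.00497). It was detected on neither vehicle array, and the bound sets the calcitriol mean against the lowest detected level of each vehicle array, or the gene's own value where that was higher. At an unadjusted p under 0.05 in limma there were 8 of the 19 factors, beside 15.8% of all probes. Jdp2, Vdr, Junb and Nfkbia were higher, and Atf3, Rela, Elk3 and Jun were lower. Of 19 measured cytokine and growth factor genes 2 passed, the interleukin gene Il1a at 3.78-fold and Pdgfa, a stellate cell mitogen, at 2.34-fold (adjusted p = 0.0081 and 0.0195). Of these 19 genes 8 had an unadjusted p under 0.05. Of 17 measured matrix substrates limma passed 0 (2 at an unadjusted p under 0.05, Col3a1 at -0.65 ± 0.13 and Sparc at -0.64 ± 0.16). Without calcitriol array 1 or calcitriol array 2 no probe passed in limma, so the calls of Plau, Cd44, Jdp2, Il1a and Pdgfa each need both arrays.

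**Figure D4:**
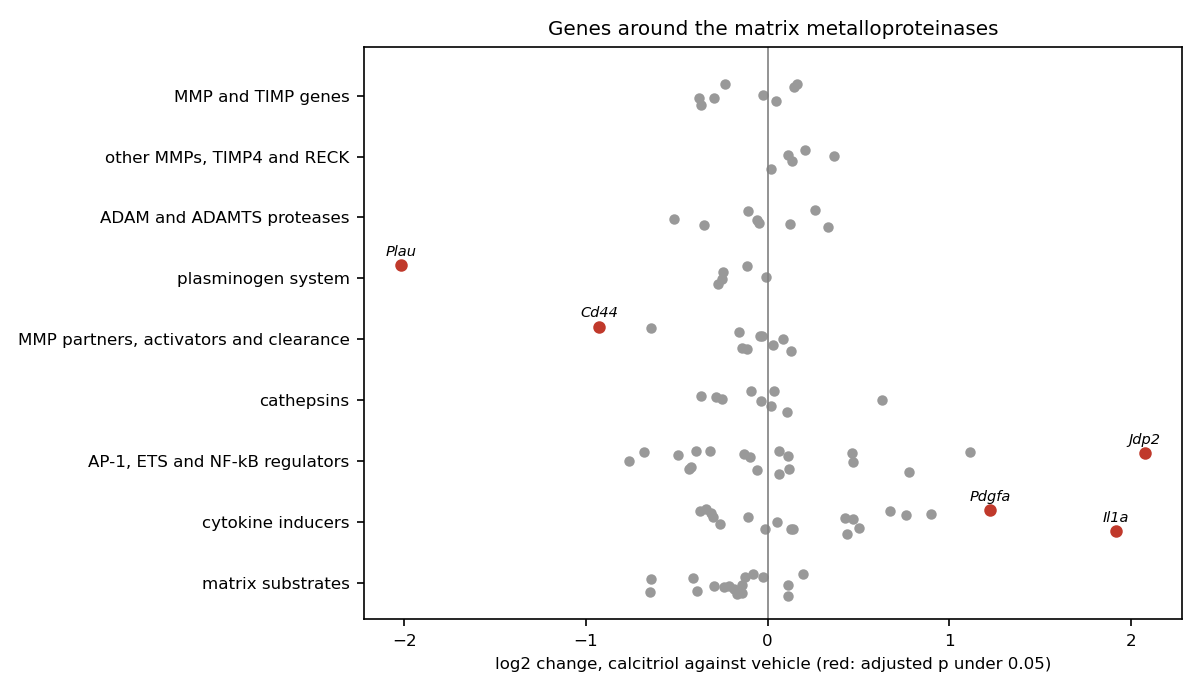
Log2 change with calcitriol against vehicle for the measured genes of the MMP and TIMP set and of 8 related lists, 1 point per gene, with random vertical spread. Red points with names passed an adjusted p of 0.05 in limma: Plau and Cd44 lower, Jdp2, Il1a and Pdgfa higher, and none of the 8 MMP and TIMP genes.

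Against the array labelled freshly isolated, vehicle had 4 genes of these lists past the threshold, all lower, where 1.05% of all probes were lower. Jdp2 was at least 3.30-fold lower, Il1a 2.61-fold, Pdgfa 2.60-fold and the endotoxin receptor gene Tlr4 2.17-fold, with limma adjusted p from 0.0104 to 0.0393. None of the measured family members, ADAM and ADAMTS genes, plasminogen system genes, partners, cathepsins or matrix substrates passed there in limma. At an unadjusted p under 0.05, where 13.9% of all probes stood, the counts were 1 of 5, 2 of 8, 2 of 6, 3 of 10, 0 of 9 and 2 of 17 in that order. They were 6 of 19 for the AP-1, ETS and NF-kB factors and 10 of 19 for the cytokine and growth factor genes. With calcitriol against that array limma passed 0 genes of the 8 lists. The most at an unadjusted p under 0.05 were 3 of 19 cytokine and growth factor genes, 2 of 19 AP-1, ETS and NF-kB factors and 2 of 8 ADAM and ADAMTS genes, beside 6.67% of all probes, and each other list had 0 or 1.

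Because Mmp9 and Mmp12 are also made by macrophages and Mmp8 and Mmp9 by neutrophils, markers of other cells were read on the same arrays. In bulk RNA, fewer cells of a type and less RNA per cell cannot be told apart. Of 24 macrophage markers 18 had a named probe, and 16 or 17 of these were detected on each array, with Mpeg1 on none. Their summed signal was 0.634% of all signal on the array labelled freshly isolated, 0.583% and 0.613% with vehicle, and 0.607% and 0.621% with calcitriol. The 14 stellate cell markers with a named probe summed to less on every array. In the same order they gave 0.446%, 0.448% and 0.416%, and 0.425% and 0.466%. Such sums come from different probes and do not measure the shares of the cell types. With calcitriol 3 of 17 tested macrophage markers fell (Clec4a1 2.82-fold, Ptprc 2.35-fold and Clec4a3 2.22-fold) and none rose, beside 0.657% and 1.17% of all probes. Over the 17 markers 11 values were negative and 6 positive, with a median log2 change of -0.06. C1qb, a subunit of complement C1q, stood at 0.48 ± 0.14 (limma adjusted p = 0.192). With vehicle Ptprc was 3.01-fold higher than on the array labelled freshly isolated. Of 12 neutrophil markers 1 to 3 were detected on an array. Lcn2 reached detection on every array and S100a8 on all but vehicle array 1. Camp did so on calcitriol array 1 and on the one labelled freshly isolated. The rest of this list, among them Mpo, Elane, Ltf and Mmp8, stayed undetected throughout. Hepatocyte markers were at background but for 1 or 2 of 11. Tf was detected on every array and Serpina1 on the array labelled freshly isolated, while albumin was detected on no array. Of 7 sinusoidal endothelial markers 2 were detected on the array labelled freshly isolated and 3 to 6 on the others. Against that array all 6 tested had positive values with vehicle (median log2 change 0.71) and with calcitriol (median 0.66). At an unadjusted p under 0.05 in limma there were 4 with vehicle and 3 with calcitriol, beside 13.9% and 6.67% of all probes. Past the adjusted threshold there was 1, Emcn, at least 2.14-fold higher with vehicle, where 0.483% of all probes were higher. Emcn, Flt1, Tek and Vwf were not detected on the array labelled freshly isolated and were tested only because cultured arrays detected them. Their positive values, and the counts that include them, therefore follow in part from the filter. Of 4 biliary markers 2 were detected on each array, Krt7 and Spp1, while Krt19 and Epcam were detected on none. Spp1 is also among the matrix substrates. The part of other cells in the MMP and TIMP signals was not tested.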

How the data were processed

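Total RNA of 5 samples was labelled with biotin and hybridised to Illumina bead arrays. Per the file headers, the authors' deposited table gives each probe an intensity averaged over its beads, with its standard error, a count of beads and a detection p-value. GenomeStudio 2011.1 is named in the submitters' processing notes, and the steps run in it are not given in the sources used here. The deposited series value table, also intensity, keeps the ranks of the signals (Spearman rho 1) and served as an alternative.

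From the intensities, limma 3.58.1 in R 4.3.3 (neqc, offset 16) corrected background, applied quantile normalization and took log2. Probes with detection p under 0.01 on at least 1 array were kept (9737 of 22523; 8730 of all probes are unnamed here). A model with 1 mean per group (lmFit, eBayes; 2 residual degrees of freedom, prior 3.65) was fitted to all 5 arrays, two-sided, with Benjamini-Hochberg adjustment over the 9737 probes and a threshold of 0.05. All genes of the set are named. From each list the genes past the threshold, or the leading ones by p, are named, and a gene with several probes is read from the brightest. The genes and lists were chosen with earlier results of these data known. The fit was tested on simulated data, where the adjusted threshold found most large changes, with some false calls, and missed small and moderate ones. On the real arrays some changes of moderate size passed, such as those of Cd44 and Pdgfa. The simulation therefore does not set which sizes of change can pass here. The deviations of vehicle and calcitriol arrays with the same replicate number had a correlation of -0.106 over the probes. With 2 arrays per cultured group this cannot show whether the numbers pair the arrays. The main fit left them unpaired, and a replicate block served as an alternative. The number of arrays limits the precision.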

Additional observations from a re-analysis of the deposited data

How the results depend on the processing

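The count of MMP and TIMP genes past the threshold remained 0 in each comparison under all settings run, except 1 (Mmp14, lower with calcitriol) with a variance trend. With calcitriol against vehicle the count of all probes was 298 with scaling to the array median, 489 without background correction, 488 from the series value table and 684 with the trend, against 178, and 0 to 182 with single arrays left out. Higher calls were 237 of the 298 with median scaling, against 114 of 178, and 337 of 684 with the trend. For vehicle against the array labelled freshly isolated the same settings gave 276, 403, 401 and 506, against 149, with 68 under the replicate block and 0 to 60 with arrays left out. Of these, 47 of 149 were higher, 56 of 276, 181 of 403 and 238 of 506. For calcitriol against that array they gave 22, 35, 30 and 51, against 0. The replicate block gave 129 probes for calcitriol against vehicle and changed no MMP or TIMP call. A crossed block, added after seeing the data, gave 204, 102 and 0.

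Among single genes 307 of 320 values kept direction and call. With scaling to the array median the sign turned for Mmp12 with calcitriol (0.078) and, for vehicle against the array labelled freshly isolated, for Timp2 (-0.061), Mmp12 (-0.024), Mmp13 (-0.18) and Mmp14 (-0.20). With the replicate block Mmp12 turned for calcitriol against that array (-0.013). Leaving out arrays gave, with calcitriol against vehicle, -0.16 to 0.10 for Mmp12 and -0.12 to 0.45 for Mmp13. For vehicle against the array labelled freshly isolated it gave -0.27 to 0.29 for Mmp13, -0.0031 to 0.14 for Mmp14 and -0.18 to 0.041 for Mmp19, and for calcitriol against it -0.10 to 0.16 for Mmp12. The cause was not tested. Each gene has 1 probe, so no comparison between probes was possible. Low signal over background limits Timp3, Mmp2 and Mmp19.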

Other observations

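Timp2 varied most among the measured MMP and TIMP genes (0.618 on the log2 scale over 5 arrays). The named genes nearest to its pattern, by Euclidean distance of mean-centred log2 values over the 5 arrays, were Sirt7 (0.0499), Hsd17b3 (0.0834), Mak16 (0.0876), Rcan2 (0.0982) and Lsm3 (0.0997), where the median distance of all named probes was 0.612. All 5 had their lowest value on calcitriol array 2, as Timp2 did, which follows from choosing them by likeness to its pattern. These distances rest on 5 arrays and say nothing of shared control.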
